A study of Mus musculus with 19 samples.

Results

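Tuft cells are rare epithelial cells of the gut that sense the contents of the lumen. They depend on the transcription factor POU2F3, relay signals through the same G protein and ion channel cascade as taste cells, and release eicosanoids and the cytokine interleukin 25, which starts type 2 immune responses to worms and protists. The 9 tuft cell genes described here are Pou2f3, Gnat3, Trpm5, Alox5ap, Il25, Dclk1, Avil, Sh2d6 and Rgs13. They were taken from a list of tuft cell genes and matched by symbol to the Ensembl gene identifiers of the gene count tables, which hold 55487 genes. All 9 matched 1 identifier each, and 8 of the 9 passed the filter on low counts that 17875 genes passed. Il25 did not.

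The RNA came from crypts of the small intestine, taken from 19 mice that carried (NT+/+) or lacked (NT-/-) the gene of neurotensin, a peptide hormone released by enteroendocrine cells of the gut on fat ingestion. The groups were 5 NT+/+ and 4 NT-/- mice fed ad libitum (AL) and 10 fasted mice, 5 of each genotype, kept without food for 48 hours with access to water. All were labelled C57BL/6, and the methods give littermates of both sexes aged 10 to 16 weeks. Per the methods, crypts were taken from the small intestine without its most distal part. The paper describes its fed and fasted mice of both genotypes as carrying an Lgr5-EGFP reporter of stem cells. NT deficiency affected the whole animal and not only the gut. The mouse titled NT+/+ Fast-5 carried the opposite genotype in another label and was kept with the group of its title. Counts per mouse summed to between 9059418 and 35068669. Nts, the targeted gene, measured 4.98 to 8.59 CPM (counts per 1000000 of the scaled library size) in the NT+/+ mice and 0.144 to 0.793 CPM in the NT-/- mice, without overlap, and NT+/+ Fast-5 lay within the range of NT+/+ mice.

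Levels of different genes can be compared only per length, as TPM (transcripts per 1000000 transcripts, the authors' values). Over all 19 mice, Dclk1 was the highest of the tuft genes, at 22.5 ± 12.4 TPM (SD), and was above Trpm5 in 19 of 19 mice. Trpm5 (16.4 ± 9.76 TPM), Sh2d6 (15.9 ± 9.48 TPM) and Alox5ap (14.6 ± 9.25 TPM) followed, and neighbours in this order were not separated in every mouse: Trpm5 exceeded Sh2d6 in 12 of 19 mice and Sh2d6 exceeded Alox5ap in 13 of 19. Avil measured 12.4 ± 7.47 TPM and Rgs13 8.29 ± 4.15 TPM. Pou2f3 measured 3.83 ± 2.27 TPM, and Gnat3 0.496 ± 0.310 TPM. Il25 was lowest, at 0.122 ± 0.133 TPM, and had 0 counts in 4 of 19 mice. The SD of each gene was large relative to its mean because, from the lowest to the highest mouse, CPM differed 5.09-fold for Dclk1 and up to 7.70-fold for Trpm5. All further values are CPM, which compare 1 gene between mice.

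Pou2f3, located at chr9:43123939-43210369 (GRCm38, minus strand), encodes the transcription factor that tuft cells require. It measured 23.9, 6.98, 4.89, 4.21 and 4.74 CPM in NT+/+ AL-1 to AL-5 and 13.8, 14.7, 5.73 and 8.79 CPM in NT-/- AL-1 to AL-4. After fasting it measured 15.7, 4.64, 6.59, 4.23 and 4.31 CPM in NT+/+ Fast-1 to Fast-5 and 10.8, 11.5, 4.05, 6.41 and 4.33 CPM in NT-/- Fast-1 to Fast-5. All 4 groups overlapped, and within each group the highest mouse was number 1 or number 2. The log2 fold change on fasting was −0.34 (SE 0.49) in NT+/+ mice and −0.56 (SE 0.51) in NT-/- mice (adjusted p = 0.67 and 0.48, edgeR's quasi-likelihood test).

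Trpm5 and Gnat3 encode parts of the taste transduction cascade, the cation channel TRPM5 and the G protein alpha subunit gustducin. Trpm5 (chr7:143069153-143094642, minus strand) measured 118, 41.6, 27.0, 22.7 and 17.7 CPM in NT+/+ AL-1 to AL-5 and 74.8, 75.7, 28.5 and 32.2 CPM in NT-/- AL-1 to AL-4. In fasted mice it measured 90.4, 28.5, 35.2, 24.3 and 20.9 CPM in NT+/+ Fast-1 to Fast-5 and 60.2, 74.7, 15.4, 42.5 and 24.6 CPM in NT-/- Fast-1 to Fast-5. Fed and fasted mice covered nearly the same range, with log2 fold changes on fasting of −0.19 (SE 0.52) in NT+/+ and −0.30 (SE 0.55) in NT-/- mice (adjusted p = 0.84 and 0.75, edgeR). Gnat3 (chr5:17962549-18019834, plus strand) was counted 3 to 24 times per mouse, so counting error alone was large. Its levels were 0.193 to 0.768 CPM in fed NT+/+ mice, 0.413 to 0.639 CPM in fed NT-/- mice, 0.286 to 1.27 CPM in fasted NT+/+ mice and 0.231 to 1.36 CPM in fasted NT-/- mice. Its log2 fold change on fasting, averaged over the genotypes, was 0.53 (SE 0.36, adjusted p = 0.27, edgeR), the highest estimate of the 8 tested tuft genes.

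The output of tuft cells is represented by Alox5ap, whose product presents arachidonic acid to 5-lipoxygenase in leukotriene synthesis, and by Il25. Alox5ap (chr5:149264767-149288153, plus strand) measured 16.7, 5.83, 2.97, 3.50 and 3.29 CPM in NT+/+ AL-1 to AL-5, and 16.4, 3.48, 6.07, 2.74 and 2.74 CPM in NT+/+ Fast-1 to Fast-5. In NT-/- mice it measured 9.91, 11.4, 3.90 and 4.85 CPM in AL-1 to AL-4 and 10.5, 10.2, 2.60, 5.82 and 4.76 CPM in Fast-1 to Fast-5. The spread within each group, 2.91-fold to 5.98-fold between its lowest and highest mouse, exceeded every difference between group means. Il25 (chr14:54932695-54935837, plus strand) was counted 34 times in all 19 mice together. NT+/+ Fast-1 held 8 of these counts, and NT+/+ Fast-3, Fast-4 and Fast-5 held 0. In the 4 mice at 0, a count of 0 allows up to 3 counts, or 0.154 to 0.173 CPM depending on depth, so differences in Il25 between groups were not detectable.

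Dclk1, Avil, Sh2d6 and Rgs13 encode a microtubule-associated kinase used as a tuft cell marker, the actin-binding protein advillin, an SH2 domain adaptor and a regulator of G protein signalling. Dclk1 (chr3:55242364-55539068, plus strand) measured 131, 57.3, 31.8, 28.0 and 30.2 CPM in NT+/+ AL-1 to AL-5 and 82.2, 91.7, 37.7 and 53.9 CPM in NT-/- AL-1 to AL-4. Fasted mice measured 109.8, 38.3, 44.8, 28.6 and 31.2 CPM (NT+/+ Fast-1 to Fast-5) and 72.5, 88.8, 25.7, 60.1 and 39.9 CPM (NT-/- Fast-1 to Fast-5). The groups overlapped throughout, and the log2 fold change on fasting was −0.14 (SE 0.45) in NT+/+ and −0.22 (SE 0.47) in NT-/- mice (adjusted p = 0.86 and 0.79, edgeR). Avil (chr10:127000709-127020994, plus strand) ranged from 13.9 to 75.9 CPM in fed and from 10.1 to 62.3 CPM in fasted mice. Sh2d6 (chr6:72513641-72521707, minus strand) ranged from 7.01 to 41.5 and from 7.28 to 40.9 CPM. Rgs13 (chr1:144138654-144177372, minus strand) ranged from 5.65 to 27.2 and from 4.73 to 18.5 CPM. The annotation places Tssc4 on the opposite strand within reach of Trpm5, Tsfm likewise beside Avil, and noncoding gene models over Dclk1 and Alox5ap, and reads of such overlapping genes cannot be told apart here because the strand setting of the counting is not given in the sources used here.

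**Figure D1:**
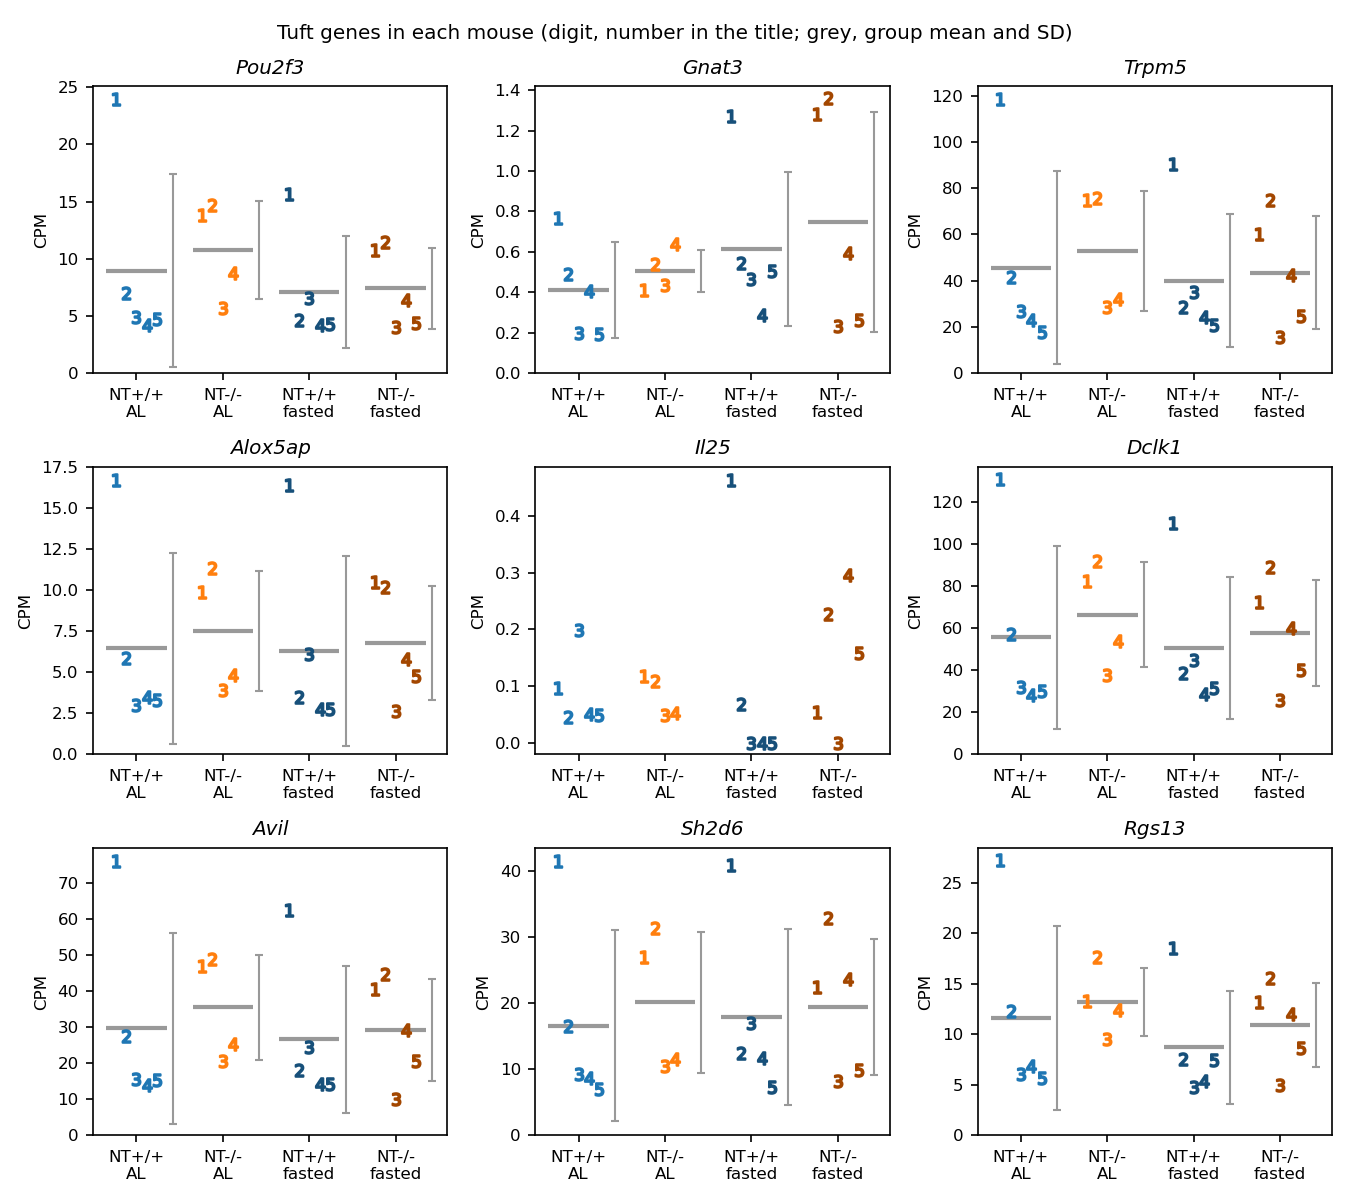
Level of each of the 9 tuft genes in CPM (vertical axes, linear) in each mouse of the 4 groups (horizontal axes), drawn as the number in the mouse's title, with grey lines for the mean and bars for the SD of each group except for Il25. Mouse 1 stands highest in both NT+/+ groups for every gene except Il25 in fed mice, while mice 1 and 2 lead in the NT-/- groups for most genes.

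The first question was whether tuft genes responded to fasting, to the loss of NT, or to their combination. None of the 8 tested tuft genes was called in any comparison by the quasi-likelihood test of edgeR, with p-values adjusted over all genes by the Benjamini-Hochberg method. On fasting, 0 of 8 were called in NT+/+ mice (21.6% of all genes), 0 of 8 in NT-/- mice (25.2% of all genes) and 0 of 8 over both genotypes (39.4% of all genes), and 0 of 8 passed an unadjusted p of 0.05 in each, which 34.1%, 36.5% and 47.4% of all genes did. Between the genotypes, 0 of 8 were called ad libitum (0.00559% of all genes), 0 of 8 after fasting (0.00559%), and 0 of 8 for the difference of the fasting effects (0%), again with 0 of 8 at an unadjusted p of 0.05 (1.67%, 9.14% and 2.71% of all genes). DESeq2's Wald test called 0 of 8 in all 6 comparisons as well.

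The estimates were small but their intervals wide. The median log2 fold change of the 8 genes on fasting was −0.15 in NT+/+ and −0.26 in NT-/- mice, with 2 and 1 of the 8 genes above 0. NT-/- mice had estimates above NT+/+ mice for 8 of 8 genes in both diets, from 0.18 to 0.27 ad libitum and from 0.05 to 0.31 after fasting. Since the 8 genes moved together from mouse to mouse, a shared sign counts as little more than 1 observation. The SE ran from 0.43 to 0.58 in these comparisons, and the 95% intervals of all genes together reached from −1.63 to 1.61 for the fasting effects and from −1.08 to 1.42 for the genotype effects. Changes within these intervals were not detectable in this fit, and the intervals were narrower when the number in the title of each mouse was added to it. In bulk RNA, fewer tuft cells and less RNA per tuft cell cannot be told apart.

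**Figure D2:**
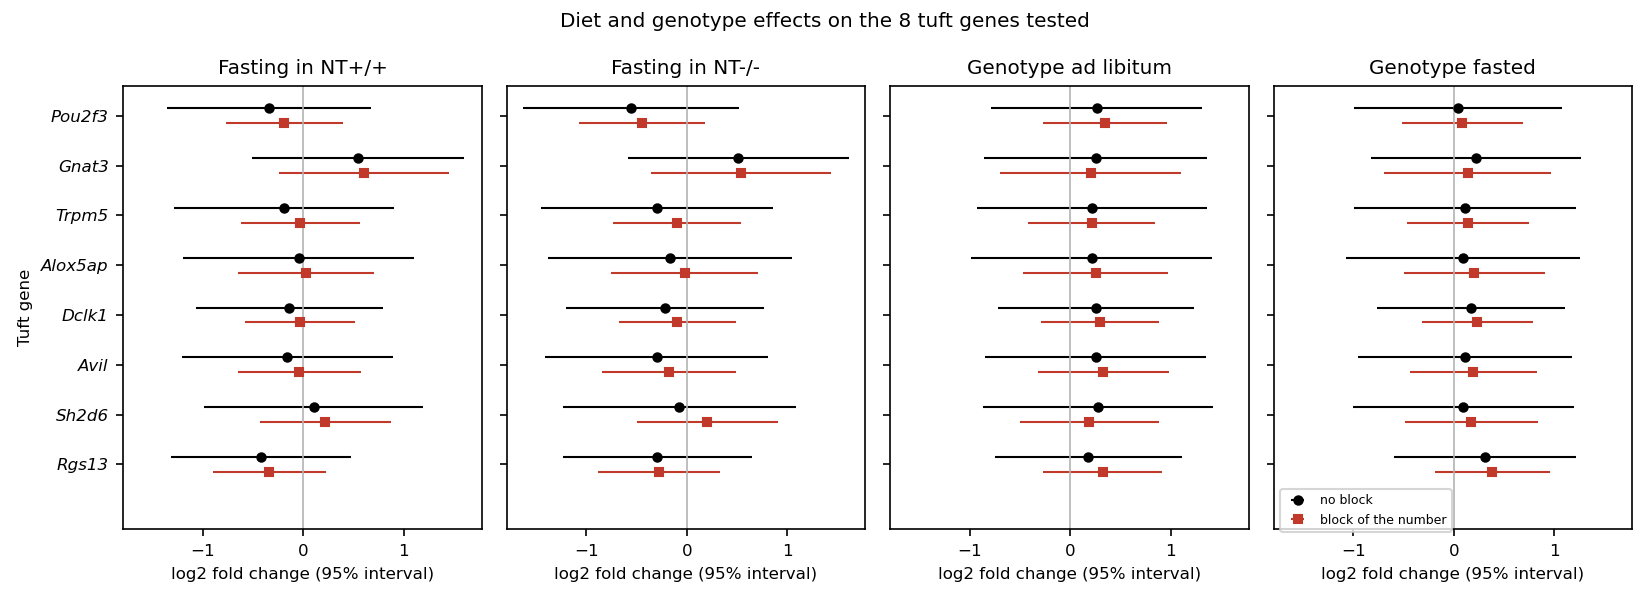
Log2 fold changes (horizontal axes) with 95% intervals of the 8 tuft genes tested, for fasting in each genotype and for NT-/- over NT+/+ in each diet, without (black circles) and with (red squares) the number of the mouse as a block. Every interval includes 0, and the intervals are narrower with the block.

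Summed over the 9 genes, the level was 174.8 ± 149.6 CPM (SD, n = 5) in fed NT+/+, 206.6 ± 86.4 CPM (n = 4) in fed NT-/-, 157.6 ± 112.6 CPM (n = 5) in fasted NT+/+ and 175.2 ± 84.9 CPM (n = 5) in fasted NT-/- mice. Without NT+/+ AL-1, the mean of fed NT+/+ mice was 109.7 ± 39.6 CPM (n = 4), and the ratio of fasted to fed NT+/+ mice turned from 0.902 to 1.44. The SD within each group exceeded the differences between the 4 means. For the median tuft gene, the group accounted for 6.84% of the variance of log2 CPM over the 19 mice, relative to 29.1% for the median of all genes tested. The SD within groups had a median of 0.84 on the log2 scale for the tuft genes and 0.25 for all genes. Among 17875 genes ranked by this SD, Alox5ap was 436, Trpm5 455 and Sh2d6 458, and Gnat3, the last of the 8, was 1043.

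This variation between mice followed the number at the end of the sample title, which runs from 1 to 5 in each group (1 to 4 in fed NT-/- mice) and whose meaning the labels do not give. The summed levels were 435.2, 268.4, 355.8 and 231.4 CPM in the 4 mice numbered 1 (fed NT+/+, fed NT-/-, fasted NT+/+ and fasted NT-/-). The 4 mice numbered 2 measured 168.5, 291.8, 113.8 and 279.7 CPM in the same order. The 11 mice numbered 3 to 5 lay between 71.1 and 180.6 CPM, with a median of 97.8 CPM. Thus each mouse numbered 1 was above each of the mice numbered 3 to 5, whereas mice numbered 2 were high in both NT-/- groups and overlapped with the remainder in the NT+/+ groups. Number accounted for a further 66.3% of the variance of the median tuft gene and 25.5% for the median of all genes.

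**Figure D3:**
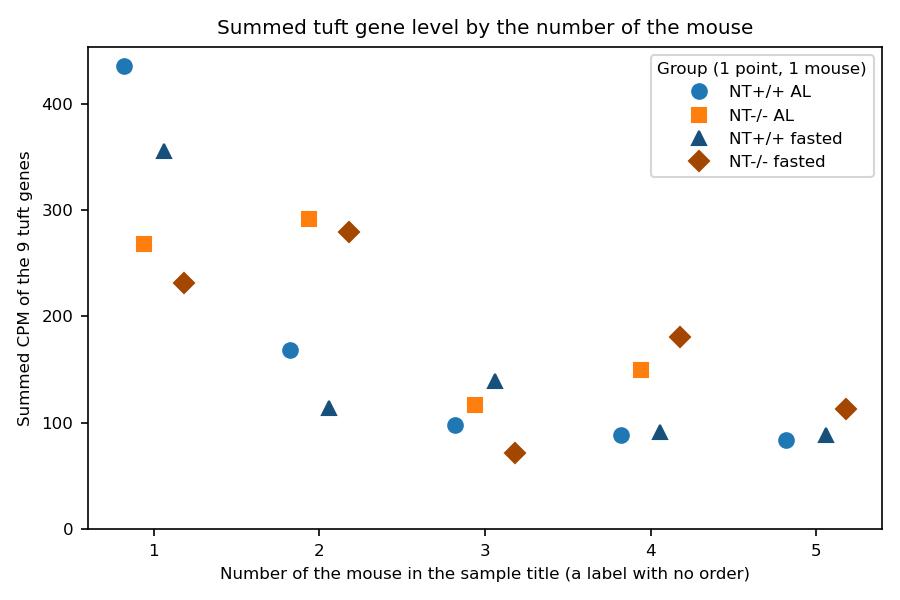
Summed CPM of the 9 tuft genes (vertical axis, from 0) in each mouse against the number in its title (horizontal axis), with 1 symbol per group. The 4 mice numbered 1 lie between 231.4 and 435.2 CPM, and the 11 mice numbered 3 to 5 between 71.1 and 180.6 CPM.

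In a fit with group and number together, which was added after the values had been seen, the effect of the number was called for 7 of 8 tuft genes (edgeR's quasi-likelihood F test, adjusted over all genes), relative to 6.72% of all genes. The genes called were Trpm5 (adjusted p = 0.0077), Pou2f3 (0.011), Avil and Alox5ap (0.013 each), Dclk1 (0.013), Sh2d6 (0.014) and Rgs13 (0.022), and Gnat3 was not (0.10). Mice numbered 1 were 0.84 to 1.25 log2 units above the average of the numbers over the 8 genes, mice numbered 2 were 0.30 to 0.55 above, and the average of each of the numbers 3, 4 and 5 lay below for all 8 genes. A second number, carried by the file names, differs from the title for 2 fed NT-/- mice and gave 7 of 8 called tuft genes (15.3% of all genes). Because the test was built on a pattern seen in the same mice, its p-values describe that pattern and are no independent evidence of it. The call also rested on single mice: without NT+/+ AL-1, or without NT+/+ Fast-1, 1 of 8 tuft genes was called.

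The number was also tied to sex. All 8 mice numbered 1 or 2 were labelled female, relative to 4 of the 11 mice numbered 3 to 5, of which 6 were male and 1 had no label. Summed tuft levels were 113.8 to 435.2 CPM (median 274.0) in females numbered 1 or 2, 88.3 to 180.6 CPM (median 103.9, n = 4) in females numbered 3 or 4, and 71.1 to 149.6 CPM (median 93.1, n = 6) in males. In the 18 mice with a label, male tuft levels were estimated 0.80 to 1.20 log2 units below female levels, but 0 of 8 genes were called (smallest adjusted p = 0.27, edgeR, with 8 of 8 at an unadjusted p under 0.05; of all genes, 0.0783% were called and 10.3% had an unadjusted p under 0.05). Once the number had been added, the sex estimate for the 8 genes lay between −0.09 and 0.36 and 0 of 8 were called (0.0448% of all genes), with 0 of 8 at an unadjusted p under 0.05 (8.23% of all genes). Within a number of the title, sex differed only through NT-/- AL-3 (female) and NT-/- AL-4 (male). The sex estimate of this fit thus rested on these mice set against others of their number, and it cannot show whether sex adds to the number. With sex in the fit, the number was called for 0 of 8 (smallest adjusted p = 0.062, with 7 of 8 at an unadjusted p under 0.05; of all genes, 2.55% were called and 25.2% had an unadjusted p under 0.05). In the same 18 mice without sex in the fit, 7 of 8 were called (6.15% of all genes), and 8 of 8 had an unadjusted p under 0.05 (27.3%). For the number of the file names, all labelled mice of a number shared 1 sex (female for 1, 2 and 4, male for 3 and 5). A sex effect apart from that number therefore cannot be estimated. Thus sex cannot be told apart from the number of the file names at all, and not fully from that of the titles.

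With the number of the title as a block, SEs of the diet and genotype effects on the tuft genes fell from a range of 0.43 to 0.58 to one of 0.26 to 0.43, and still 0 of 8 were called in each of the 6 comparisons. Of all genes, this fit called 28% on fasting in NT+/+ mice, 31.6% in NT-/- mice, 45.6% over both genotypes and 0.00559% between the genotypes in either diet. With the number of the file names as the block, 0 of 8 were again called, relative to 30.7%, 31.7% and 46.2% of all genes for the fasting comparisons. For Dclk1, the blocked log2 fold change on fasting averaged over the genotypes was −0.06 (SE 0.19), and for Trpm5 it was −0.06 (SE 0.21). For Pou2f3 it was −0.32 (SE 0.20, adjusted p = 0.22, edgeR). Within mice of the same title number, the summed tuft level was higher after fasting in 3 of 5 NT+/+ pairs (ratios 0.675 to 1.42) and in 1 of 4 NT-/- pairs (0.609 to 1.21). It was higher in the NT-/- than in the NT+/+ mouse in 3 of 4 fed pairs (0.617 to 1.73) and in 3 of 5 fasted pairs (0.511 to 2.46). No direction was shared by all pairs of any comparison. In these pairs, NT-/- AL-3 (female) and NT-/- AL-4 (male) stood beside mice of the other sex and of another file number. Ratios for pairs by the number of the file names were not computed.

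Markers of other cells were examined across the same mice. Summed Paneth cell markers were 25386 to 38793 CPM in the mice numbered 1 and 15842 to 31481 CPM in the others, and 3 of 5 of them were called for the number. Of the goblet cell genes, 4 of 5 were called for the number, but not in 1 pattern: relative to the average, mice numbered 1 were at 0.69 log2 units for Clca1, 0.70 for Spdef, 0.26 for Tff3 and −0.03 for Muc2, and Fcgbp, which was not called, was at 0.04. Of the stroma and vessel genes, 2 of 5 were called for the number. These were Col1a1 and Col3a1, collagens of stromal cells, which went the other way, at 1.62 and 1.58 log2 units below the average in mice numbered 1. Of those not called, Acta2 was at −0.90, Dcn at −0.67 and Pecam1 at 0.18. Col1a1 did not exceed 0.925 CPM in any mouse. Of the mast cell genes, 1 of 3 tested was called for the number. This was Kit, found in mast cells and in epithelial cells, which measured 96.4 to 121 CPM in mice numbered 1 and 47.1 to 98.0 CPM in the others. Mcpt1 and Mcpt2, which were not called, were at 0.06 and 0.0017 log2 units in mice numbered 1. Stem cell (1 of 5), enterocyte (1 of 6), enteroendocrine (0 of 6), B cell (0 of 5), T cell (0 of 6), myeloid (0 of 4) and neural (0 of 2) markers had 0 or 1 call each for the number of the title (6.72% of all genes). With the number of the file names (15.3% of all genes), 3 of 5 stem cell, 3 of 5 stroma and vessel, 0 of 6 enterocyte and 1 of 5 B cell markers were called. With group means subtracted, the summed markers of each list were correlated with the mean standardized level of the 8 tuft genes over 19 mice. Pearson's r was 0.73 for mast, 0.57 for goblet, 0.32 for enteroendocrine, 0.26 for B, 0.18 for Paneth and 0.02 for stem cell markers. It was −0.71 for stroma and vessel, −0.62 for enterocyte, −0.56 for T cell, −0.56 for neural and −0.35 for myeloid markers. The part of these other cells in the tuft result was not tested.

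From mouse to mouse the tuft genes rose and fell together. After the group means had been subtracted, Pearson's r of log2 CPM over 19 mice was 0.75 to 0.99 for the 28 pairs of tested tuft genes (median 0.95), and Spearman's rho was 0.67 to 0.99 (median 0.89). The largest r was that of Dclk1 with Avil (0.99), and the 7 lowest belonged to Gnat3, from 0.75 with Sh2d6 to 0.84 with Rgs13. When mice were permuted without regard to their number, the adjusted p over the 28 pairs was no larger than 0.00024 for r and 0.0021 for rho (100000 permutations, where 1e-05 is the smallest p possible). Without the 2 mice farthest from the median, r was 0.66 to 0.99. Without the 4 mice numbered 1 it was 0.68 to 0.98, and with the means of the numbers subtracted as well it was 0.34 to 0.98 (median 0.89). In a permutation test added after the values had been seen, in which only mice with the same number were exchanged, 22 of 28 pairs had an adjusted p under 0.05 for both r and rho. The remaining 6 pairs all included Gnat3 (adjusted p of 0.054 to 0.22 for r). For the 21 pairs without Gnat3, the lowest r was 0.69 and the lowest rho 0.66, with adjusted p no larger than 0.0077 and 0.020.

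**Figure D4:**
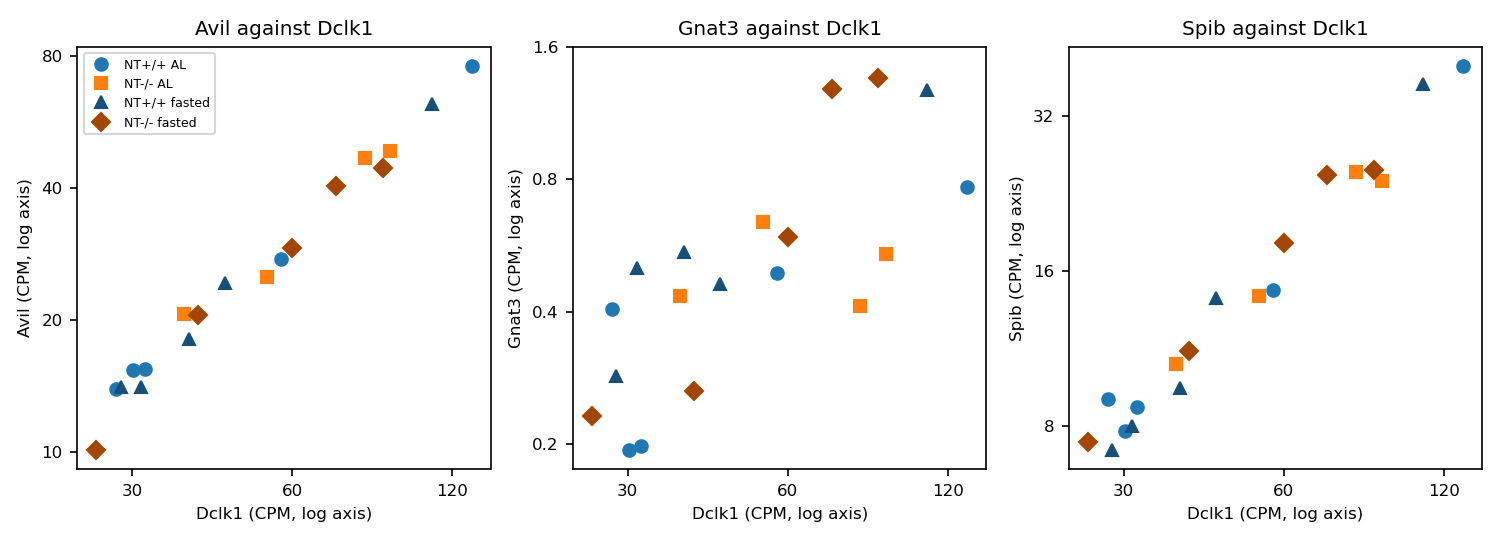
Avil, Gnat3 and Spib (vertical axes) against Dclk1 (horizontal axes) in CPM on log axes, with 1 point per mouse and 1 symbol per group. Avil and Spib follow Dclk1 in all 4 groups, and Gnat3 scatters more widely.

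The genes most like the tuft genes were sought among the other 17867 genes tested, by r with the mean standardized level of the 8 tuft genes over the 19 mice with group means subtracted. Among the 10 highest were Spib (0.99), Pik3r5 (0.99), Alox5 (0.98), Kctd12 (0.98), Strip2 (0.98), Ly6g6f (0.98), Sh2d7 (0.98), Siglecf (0.98) and Hmx3 (0.98). Spib and Hmx3 encode transcription factors, Alox5 the 5-lipoxygenase that acts with the product of Alox5ap, and Pik3r5 a regulatory subunit of phosphoinositide 3-kinase gamma. Without the 4 mice numbered 1, r of the genes named lay between 0.93 and 0.95. For this value the group means of each gene were taken anew from the remaining mice, but those of the tuft mean were kept from all 19. Of 35 other listed tuft genes, 33 were tested and had a median r of 0.92, relative to −0.0036 for all genes, and 24 of the 33 were among the 100 highest. The 4 lowest values were those of Espn (−0.40), Gnb3 (−0.06), Tas1r3 (0.14) and Rgs2 (0.47). Spib, for example, measured 39.96, 14.7, 8.72, 9.03 and 7.83 CPM in NT+/+ AL-1 to AL-5 and 36.9, 9.48, 14.2, 7.20 and 8.01 CPM in NT+/+ Fast-1 to Fast-5, with the mouse numbered 1 highest in both groups.

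Of these 33 other tuft genes, 3 rose and 3 fell on fasting over both genotypes (19.2% and 20.2% of all genes, edgeR). In NT+/+ mice 1 rose and 1 fell (11.2% and 10.4%), and in NT-/- mice 1 rose and 3 fell (12.5% and 12.6%). Between the genotypes 0 of 33 differed in either diet (0.00559% of all genes each), and 0 differed in the fasting effect (0%). At an unadjusted p under 0.05 there were also 0 in each (1.67%, 9.14% and 2.71% of all genes, edgeR). With the number as a block, 11 (titles, 45.6% of all genes) or 10 (file names, 46.2%) of the 33 were called over both genotypes. Itpr3, a receptor channel that releases stored calcium, fell from 378, 305, 313, 286 and 278 CPM in fed to 266, 241, 249, 210 and 248 CPM in fasted NT+/+ mice. It fell from 344, 357, 293 and 283 to 235, 226, 200.4, 181 and 230.0 CPM in NT-/- mice, and fed and fasted mice did not overlap in either genotype. The averaged log2 fold change of Itpr3 was −0.47 (SE 0.07, adjusted p = 3.5e-05). Espn, an actin bundling protein of microvilli, rose by 0.61 (SE 0.11, adjusted p = 0.00017), Ltc4s, leukotriene C4 synthase, rose by 0.62 (SE 0.21, adjusted p = 0.021), and Rgs2, a regulator of G protein signalling, rose by 0.49 (SE 0.13, adjusted p = 0.0054). Gnb3, a G protein beta subunit with a mean of only 0.537 CPM and so a large counting error, fell by 0.70 (SE 0.24, adjusted p = 0.028). Nrep fell by 0.55 (SE 0.17, adjusted p = 0.012). These 6 genes had an r with the tuft genes of −0.40 to 0.69, relative to the median of 0.92 for all 33.

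To see whether a tuft gene changed relative to the others, the level of the other tuft genes in each mouse was added to the fit as a covariate (the mean log2 CPM of the other tested tuft genes, or of all 8 for genes outside the list). This fit was also added after the values had been seen. The slope on this tuft level was called for 8 of 8 tuft genes, at 0.79 (Gnat3) to 1.17 (Alox5ap) log2 units per log2 unit, and for 26 of the 33 others, relative to 2.75% of all genes. These slopes restate the correlations over the same mice given above and are no separate evidence of them. At a given tuft level, the SE of the averaged fasting effect was 0.05 to 0.25, and it was called for 1 of 8 tuft genes (40.6% of all genes). Pou2f3 was lower by 0.30 log2 units after fasting (log2 fold change −0.30, SE 0.10, adjusted p = 0.020, edgeR). With each mouse left out in turn, the Pou2f3 estimate ranged from −0.35 to −0.25, and without NT+/+ AL-1 the adjusted p was 0.051. Gnat3 was estimated at 0.63 (SE 0.25, adjusted p = 0.055), and Dclk1 at −0.04 (SE 0.05), Trpm5 at −0.08 (SE 0.08) and Avil at −0.09 (SE 0.07).

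In the same fit 17 of the 33 other tuft genes were called on fasting, 10 higher and 7 lower, beside 40.6% of all genes. Among those that followed the tuft level closely, Plcb2, the phospholipase C of taste transduction, was lower by 0.46 (log2 fold change −0.46, SE 0.08, adjusted p = 0.00016). It measured 38.5, 16.3, 9.05, 9.44 and 7.64 CPM in fed and 26.3, 8.46, 10.4, 8.45 and 5.60 CPM in fasted NT+/+ mice. Kctd12, an auxiliary subunit of GABA-B receptors, was lower (−0.33, SE 0.07, adjusted p = 0.00052), as were Strip2 (−0.37, SE 0.08, adjusted p = 0.00078) and the phospholipase Plcg2 (−0.30, SE 0.06, adjusted p = 0.00077). Ptgs1, cyclooxygenase 1, was higher (0.64, SE 0.12, adjusted p = 0.00035), at 10.8, 5.60, 3.24, 2.49 and 1.79 CPM in fed and 14.2, 4.78, 5.20, 4.68 and 3.14 CPM in fasted NT+/+ mice. Higher levels at a given tuft level were also called for Il17rb, the receptor subunit for interleukin 25 (0.50, SE 0.12, adjusted p = 0.0017), Sucnr1, the succinate receptor (0.46, SE 0.15, adjusted p = 0.022), Gfi1b, a transcription factor (0.48, SE 0.18, adjusted p = 0.042), Cd300lf (0.52, SE 0.17, adjusted p = 0.021), Matk (0.35, SE 0.11, adjusted p = 0.019) and Fyb (0.32, SE 0.11, adjusted p = 0.028). Espn, Itpr3, Gnb3, Nrep, Rgs2 and Ltc4s, which had no called slope on the tuft level, made up the remainder. In each genotype alone 10 of 33 (NT+/+, 23.7% of all genes) and 11 of 33 (NT-/-, 25.6% of all genes) were called. Between the genotypes 0 of 33 and 0 of 8 were called in either diet (0.00559% of all genes each). For the difference of the fasting effects 0 of 33 and 0 of 8 were called as well (0% of all genes). That other cells of the crypt also contain some of these transcripts was not tested.

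**Figure D5:**
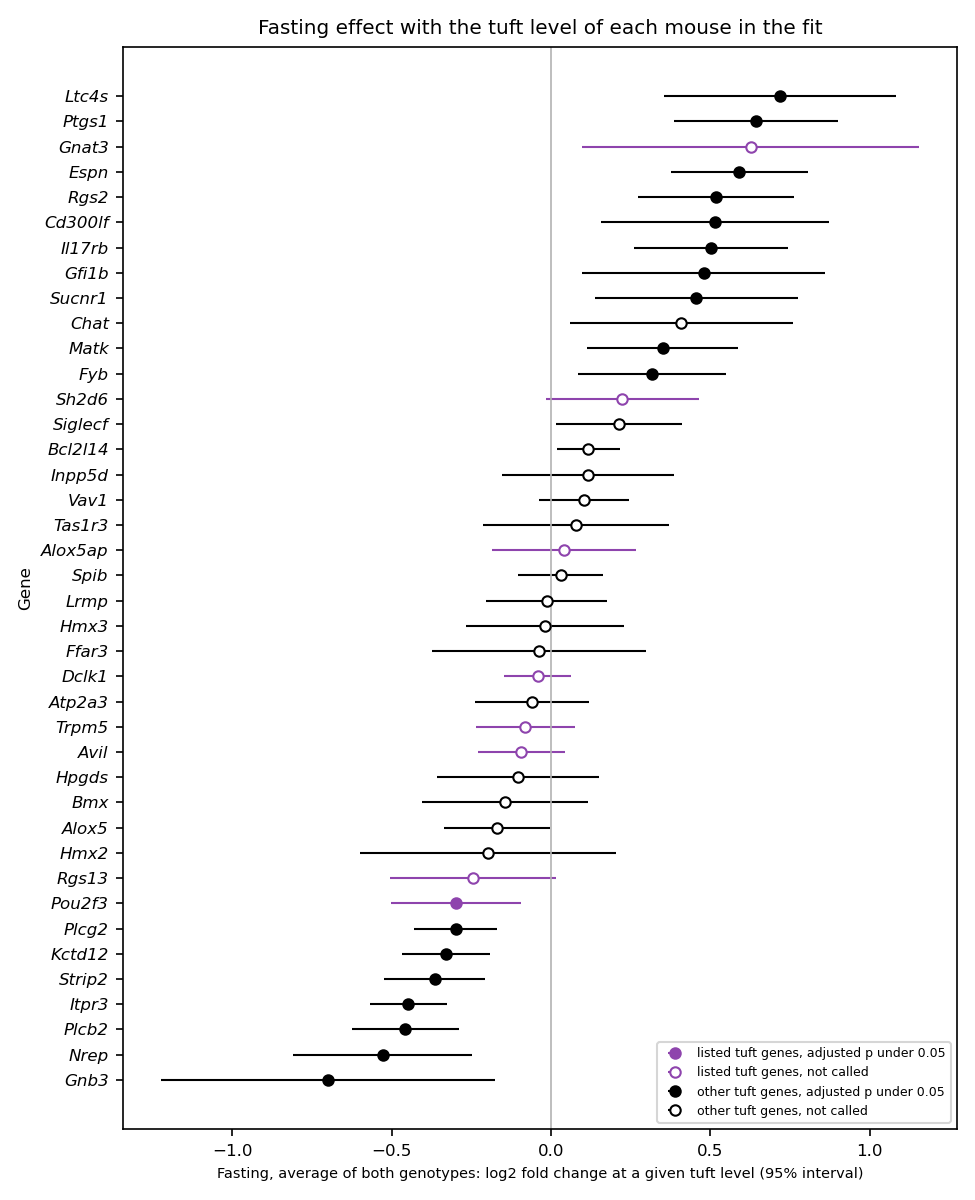
Averaged log2 fold change on fasting (horizontal axis) with 95% interval for the 8 listed (purple) and 32 of the 33 other tuft genes (black), with the tuft level of each mouse in the fit. Filled points have an adjusted p under 0.05. Pou2f3 is the only filled purple point, at −0.30, and the filled black points lie on both sides of 0.

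Since the genes moved together, the bases before their start sites were searched for the octamer ATGCAAAT, to which POU2F3 and related factors bind, on both strands of RefSeq promoter windows (GRCm38.p6, 250 bases before to 50 after each start site). Windows were found for 6 of the 9 tuft genes (7 windows, with none found for Pou2f3, Il25 and Alox5ap), and 0 of the 7 held the octamer. The octamer stood in 4 of 37 windows of the other tuft genes (10.8%) and in 570 of all 32851 windows (1.74%). A match is a description and does not mark a binding site, and its absence concerns only these letters in this window. The 4 stretches that hold the octamer are shown because they belong to genes that followed the tuft level, except Itpr3. They are written on the strand of the gene with the octamer in capitals, and in Itpr3 it lies on the opposite strand.
Sucnr1 (chr3:60081810-60081839, plus strand): ggctgcataatATGCAAATcagactgcact
Kctd12 (chr14:102982779-102982808, minus strand): cagcgtttagcATGCAAATgcattccccgc
Hpgds (chr6:65144886-65144915, minus strand): ctttactctttATGCAAATacgttggacta
Itpr3 (chr17:27057266-27057295, plus strand): tcccaggcgggATTTGCATgtgtgtggcgg
The first base of the octamer lay 48 bases before the start site in Sucnr1, 160 in Kctd12, 174 in Hpgds and 27 in Itpr3. For comparison, the 150 bases before the start sites of Trpm5 and of Avil, a pair with an r of 0.98, are shown without capitals because no octamer was found in them.
Trpm5 (chr7:143094643-143094792, minus strand): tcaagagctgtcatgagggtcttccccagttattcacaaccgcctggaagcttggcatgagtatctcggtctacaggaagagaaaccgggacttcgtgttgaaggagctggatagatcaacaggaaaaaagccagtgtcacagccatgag
Avil (chr10:127000559-127000708, plus strand): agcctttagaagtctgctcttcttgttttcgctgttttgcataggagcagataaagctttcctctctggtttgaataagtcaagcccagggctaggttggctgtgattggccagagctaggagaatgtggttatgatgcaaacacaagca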

How the data were processed

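Total RNA from mouse small intestinal crypts was depleted of ribosomal RNA and sequenced as single-end reads. Per the methods and the submitters' processing notes, the authors trimmed reads with Trimmomatic 0.39 and quantified them with RSEM against Ensembl transcripts of GRCm38, and the deposited files give expected counts and TPM for each gene in each mouse. For these analyses the expected counts were rounded, genes were filtered with filterByExpr (17875 of 55487 kept) and library sizes were scaled by TMM. CPM use the scaled library sizes, and log2 CPM a prior count of 2. The 4 groups, taken from the sample titles, entered a single edgeR 4.0.16 quasi-likelihood fit (R 4.3.3) for 6 comparisons, with Benjamini-Hochberg adjustment over all genes tested and a threshold of 0.05. The code was tested on simulated counts. Alternatives were DESeq2 1.42.0, no filter, a minimum of 10 counts per mouse, upper quartile scaling, sex as a covariate, NT+/+ Fast-5 grouped as NT-/-, fits of only the groups compared, each mouse left out, and the number as a block. Columns of the deposited tables other than these were not used.

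The tuft genes and the other gene lists were chosen with earlier results of these data known. Besides the 9 genes, the text names Nts, other tuft genes with an adjusted p under 0.05 (otherwise the 2 smallest p per comparison) and genes among the 10 most like the tuft genes, of which 1 is not reported here. Genes named for the fit with the tuft level, for other cell types and for promoters, and the fits with the number, sex and tuft level, were chosen after their values were seen. The numbers in the titles are shared between groups. Deviations from the group means over all genes correlated by 0.18 on average in 27 pairs of mice with the same number, 19 of them over 0.1, and by −0.05 in 108 other pairs. All 5 pairs were over 0.1 for fasting in NT+/+ mice and for genotype after fasting, and 2 of 4 pairs in each of the other comparisons. With the numbers of the file names the mean was 0.23, and all pairs of these 4 comparisons were over 0.1. No label says what either number marks.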

Additional observations from a re-analysis of the deposited data

Results flagged for a closer look

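Within groups, the highest and the lowest mouse were compared with the rest by the gap to the nearest mouse relative to the whole range (Dixon's ratio, read against its 95% critical value). Of 40 sets of mice examined (9 genes and their sum in 4 groups), 16 exceeded the critical value. The critical value stands for about 1 in 20 sets of normally distributed values. CPM were compared here without logs, so that rate may not hold. The genes also move together, so these are not 16 separate observations. All 16 concerned a mouse numbered 1 of an NT+/+ group. NT+/+ AL-1 stood apart from the other fed NT+/+ mice for Pou2f3 (ratio 0.860), Trpm5 (0.762), Alox5ap (0.792), Dclk1 (0.715), Avil (0.780), Sh2d6 (0.726) and the summed tuft genes (0.760). NT+/+ Fast-1 stood apart from the other fasted NT+/+ mice for Pou2f3 (ratio 0.794), Gnat3 (0.737), Trpm5 (0.794), Alox5ap (0.756), Il25 (0.853, on 8 counts), Dclk1 (0.800), Avil (0.788), Rgs13 (0.793) and the summed tuft genes (0.810).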

How the results depend on the processing

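In each of the 6 comparisons none of the 8 tuft genes was called under any alternative listed in the processing, and 0 with each mouse left out. Gnat3, counted 3 to 24 times per mouse, was not tested under the minimum of 10 counts per mouse. The 48 estimates kept their side of the threshold in all 1416 recomputed values, of which 144, none called, had the other sign. Alternatives chosen after seeing the data were the block with DESeq2 (0 called), the fits without the 4 mice numbered 1 (0 called), and the replicate block with each mouse left out, where 0 to 1 were called over both genotypes (Rgs13 without NT-/- AL-1, adjusted p = 0.044, edgeR). The replicate block of either number by itself changed no call among the 8 genes. It raised the other tuft genes called over both genotypes from 6 to 11 or 10 of 33. Of all genes, 39.4% were called without a block and 45.6% or 46.2% with it. The effect of the number was called for 1 to 8 of 8 genes with each mouse left out (1 without NT+/+ AL-1 and 1 without NT+/+ Fast-1). With sex as a covariate it was called for 0 of 8. Of all genes, it was called for 6.72% with all mice and for 2.55% with sex as a covariate. The median r of the 28 pairs was 0.93 to 0.96 with each mouse left out and 0.89 with the number means subtracted. Ratios of the summed level to fed NT+/+ mice were 1.18 (1.02 to 1.88 with each mouse left out) for fed NT-/-, 0.902 (0.618 to 1.44) for fasted NT+/+ and 1.00 (0.853 to 1.6) for fasted NT-/- mice. The 1.88, the 1.44 and the 1.6 came without NT+/+ AL-1. At a given tuft level, 15 to 18 of the 33 other tuft genes were called with each mouse left out and 17 with either block. Of all genes, 40.6% were called at a given tuft level with all mice and no block. The spread between mice limits these comparisons, and counting error adds to it for genes at low levels such as Gnat3, Il25 and Gnb3.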

Other observations

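Some genes outside the list, chosen after their values were seen, moved with the tuft genes between mice and had lower estimates in fasted mice. Gsdmc2, Gsdmc3 and Gsdmc4, gasdermin C genes, had an r of 0.92, 0.90 and 0.93 with the mean of the tuft genes over 19 mice with group means subtracted. Gsdmc4 measured 127 to 2151 CPM in fed NT+/+ mice (highest in AL-1) and 323 to 1977 CPM in fed NT-/- mice (highest in AL-2), relative to 2.57 to 24.9 and 0.578 to 15.1 CPM in the fasted groups. The averaged log2 fold change of Gsdmc4 was −6.69 (SE 0.69, adjusted p = 4e-07, edgeR), and those of Gsdmc2 and Gsdmc3 were −6.12 (SE 0.65) and −6.97 (SE 0.68). These paralogs are alike in sequence, so reads may have been split between them. Retnlb, a goblet cell product, had an r of 0.87. It measured 0.0967 to 18 CPM in fed NT+/+ mice (median 0.330, highest in AL-1) and 0.241 to 8.55 CPM in fed NT-/- mice (highest in AL-2). Fasted mice measured at most 1.22 CPM, so fed and fasted mice overlapped. The averaged log2 fold change of Retnlb was −3.39 (SE 0.94, adjusted p = 0.0072, edgeR). Retnlb was not called in NT+/+ or in NT-/- mice alone (adjusted p = 0.054 and 0.097, edgeR). Il13, a cytokine of type 2 immunity, did not exceed 0.116 CPM in any mouse.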
